A study of Mus musculus with 6 samples.

Results

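Knockdown of Thoc2 was compared with a non-targeting (NT) siRNA in J1 cells, an established mouse embryonic stem cell line. The comparison rests on 4 of the 6 arrays of the series, 2 arrays titled for Thoc2 siRNA and 2 titled for NT siRNA; the other 2 carry Thoc5 siRNA. All groups were grown in ESGRO medium, moved to M10 medium for transfection, and harvested 96 hours later. Total RNA was labelled with Cy3 and hybridised to 1-colour Agilent arrays, so each value is the level of a transcript in nucleus and cytoplasm together and not a measure of its export. The labels give no siRNA sequence, and whether the replicates are separate cultures is not stated, so the p-values measure the spread between arrays. Of 41174 probes, 28238 were well above background on both arrays of at least 1 of the groups compared, and they represent 19218 genes, each by its brightest probe.

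THO is a multi-subunit complex that binds nascent mRNA during transcription. With the helicase Ddx39b, the adaptor Alyref and further partners it forms TREX, which packages spliced mRNA and passes it to the export receptor Nxf1. Thoc2 is the large scaffold subunit of THO, and loss of THO is known for defects in mRNA export, for RNA-DNA hybrids at transcribed genes and, in embryonic stem cells, for a weakened pluripotent state.

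A level below is the processed signal on a log2 scale, set relative to the 75th percentile of its array, so that 0 is the signal of a gene brighter than most, and each 1 is a doubling. Errors are standard errors from limma, with n = 2 arrays in each group. The Thoc2 siRNA replicate 1 array stood apart. It had 79.7% of spots well above background against 68.3% to 69.9% on the other 3 arrays compared, 880 outlier spots against 75 to 155, and was scanned on another day and on a slide of its own. NT replicate 1 and Thoc2 siRNA replicate 2 shared a slide, so the difference between that pair is given where it matters. Of 12 embryonic stem cell markers, 10 have a probe on the array and all 10 were well above background on all 4 arrays. Their summed level was 10.3 and 10.4 on the NT arrays and 10.1 and 10.3 with Thoc2 siRNA, and the median member differed by -0.30, with 9 of 10 below 0 and 0 at an unadjusted p under 0.05. Of 24 fibroblast and feeder markers 17 were kept, with a summed level of 4.02 and 3.65 with NT siRNA and 3.90 and 3.79 with Thoc2 siRNA; Lum, Mgp and Fap were among the 7 not kept. Of 29 trophoblast genes 22 were kept, with a summed level of 5.53 and 5.51 with NT siRNA and 5.29 and 5.17 with Thoc2 siRNA. In RNA from a whole culture, fewer cells of a type and less RNA per cell cannot be told apart.

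The targeted gene was read first. The brightest Thoc2 probe gave levels of 1.33 and 1.43 on the NT arrays and 0.70 and 0.33 on the Thoc2 siRNA arrays. Both Thoc2 siRNA arrays lay below both NT arrays, and the 2 groups did not overlap. The level was 55.0% of NT, a log2 difference of -0.86 ± 0.28 that did not pass (adjusted p = 0.298 in limma). With 2 arrays on each side, the smallest p that exact permutation allows is 0.333. The probe lies on the X chromosome at chrX:36919451-36919510 (build mm7, per the file headers), and a second probe upstream in the gene lies at chrX:36936293-36936352, on the same strand. Their sequences, shown because they mark what was measured of the target, each hold 1 reading frame without a stop codon, and the files do not name the exon.
A_51_P441091: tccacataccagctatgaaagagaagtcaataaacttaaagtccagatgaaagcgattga
A_52_P154071: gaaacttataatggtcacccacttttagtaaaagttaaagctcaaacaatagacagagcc
The second probe read -1.94 and -2.17 with NT siRNA and -2.73 and -3.28 with Thoc2 siRNA, or 51.7% of NT. Of the other Thoc2 probes, one read 75.3% of NT and one was below background on the NT arrays.

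By their brightest probes, the partners of Thoc2 lay closer to their NT level than Thoc2 itself, apart from Thoc7. All 18 listed THO and TREX genes were measured; 12 lay above 0 and 6 below, and 4 higher and 2 lower had an unadjusted p under 0.05. The background for that looser rule is 14.7% of all genes in either direction, 8.14% higher and 6.55% lower. Ddx39b, the TREX helicase, read 5.15 and 5.30 with NT siRNA and 5.89 and 5.80 with Thoc2 siRNA (0.61 ± 0.21). Its paralog Ddx39a lay 0.47 ± 0.15 higher, the export factor Zc3h11a 0.47 ± 0.16 and the THO subunit Thoc6 0.45 ± 0.17. On the lower side Erh, a small partner of nuclear mRNA factors, read 7.84 and 8.0 against 7.37 and 7.47 (-0.50 ± 0.15). None of these passed the adjusted test, with adjusted p from 0.273 to 0.337. Under normexp background correction, and with the replicate number as a block, 0 of the 18 genes had an unadjusted p under 0.05, and leaving out single arrays gave 0 to 2 higher and 0 to 2 lower. Thoc7, a THO subunit, had the widest spread: 3.37 and 3.55 with NT siRNA, -1.07 on Thoc2 siRNA replicate 1 and 2.81 on replicate 2. Without replicate 1 its log2 difference was -0.65, against -2.59 ± 1.30 with it, so 1 array carried most of that value. A second Thoc7 probe showed no difference, at 2.49 and 2.23 with NT siRNA and 2.45 and 2.29 with Thoc2 siRNA (0.01). Thoc1 (0.51 ± 0.20), Nxf1 (0.32 ± 0.17), Alyref2 (0.30 ± 0.15), Alyref (0.24 ± 0.13), Thoc3 (0.23 ± 0.17), Thoc5 (0.15 ± 0.27), Nxt1 (0.13 ± 0.20) and Chtop (0.03 ± 0.20) lay at or above their NT level. Sarnp (-0.35 ± 0.17), Fyttd1 (-0.45 ± 0.20) and Poldip3 (-0.46 ± 0.45) lay below it, and none of these 11 genes had an unadjusted p under 0.05. Under normexp the sign turned for Alyref, Thoc3, Thoc5, Nxt1 and Chtop.

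Across all 19218 genes the median log2 difference was 0.06, and 0 genes passed an adjusted p of 0.05 in limma (smallest 0.204). By the looser rule 2822 genes had an unadjusted p under 0.05, 1564 higher and 1258 lower. With an intensity trend and robust variances 4 genes passed, of which Edn2 was higher and H2-K1, LOC56628 and Lefty1, a Nodal inhibitor, were lower. On data simulated for this comparison, limma's adjusted test called 2.2% of genes with a planted log2 change of 1, 44.8% at a change of 2 and 80.6% at a change of 6. Changes of 1, 2, 4 and 6 were planted in equal parts, in a small share of genes, on independent normal noise. The share called at one size depends on the other planted genes. These shares are therefore not the power of the real comparison. A second rule shows both replicates: 339 genes (1.76%) had both Thoc2 siRNA arrays at least 2-fold above both NT arrays, and 122 (0.635%) had both at least 2-fold below. The arrays of the 2 groups did not overlap for 4947 genes on the higher side (25.7%) and 3974 on the lower (20.7%). Most genes named below were picked by p on these same arrays, so their lack of overlap describes them and supports nothing further. The direction of the whole depends on scaling. Of the genes with an unadjusted p under 0.05, 55.4% were higher as scaled here, 39.8% after quantile normalization (1120 higher and 1695 lower) and 39.5% in the deposited series table. The 2-fold separated genes turned with it, to 130 higher and 292 lower after quantile normalization. Single genes and lists are therefore read against the median of all genes.

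**Figure D1:**
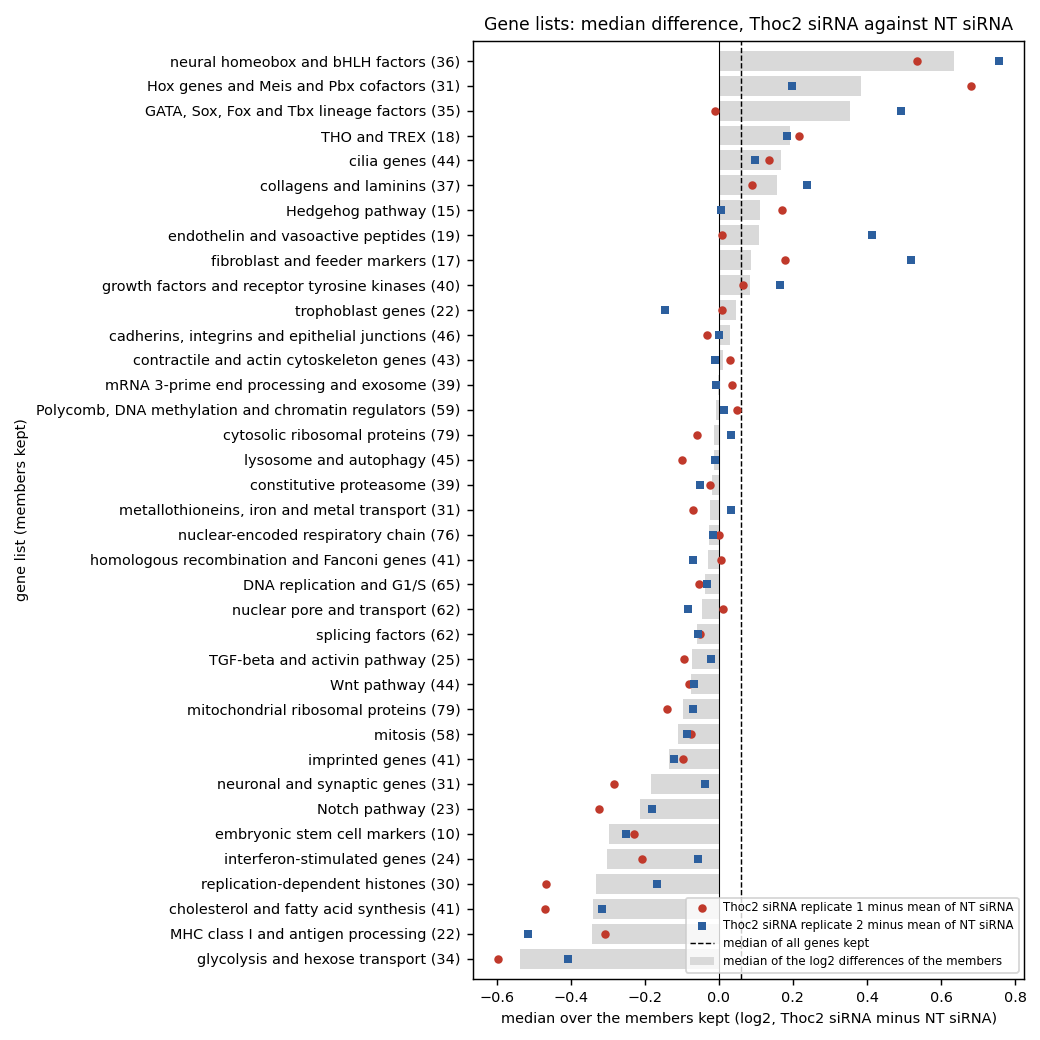
Median log2 difference (Thoc2 siRNA minus NT siRNA, horizontal axis) of the members kept in each of 37 gene lists (vertical axis, number of members in brackets). Bars are the medians of the members' differences, red circles and blue squares are the medians for Thoc2 siRNA replicates 1 and 2 against the mean of the NT arrays, and the dashed line is the median of all genes, 0.06; glycolysis lies lowest at -0.54 and neural homeobox and bHLH factors highest at 0.64.

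Glycolysis and hexose transport was the list furthest below the median. This pathway turns glucose to lactate and is highly active in embryonic stem cells; the list also holds genes known to answer to low oxygen through hypoxia-inducible factors. All 34 members were well above background on all 4 arrays. Of these, 26 lay below 0 and 8 above, with a median of -0.54; the medians were -0.60 and -0.41 for Thoc2 siRNA replicates 1 and 2. An unadjusted p under 0.05 was found for 14 lower and 2 higher members, 47.1% against 14.7% of all genes, and 3 members were 2-fold separated below NT. The median stayed below 0 and below that of all genes in all 17 alternatives (-0.63 to -0.41), and the lower count was 10 without Thoc2 siRNA replicate 1 and 8 under normexp. Within the shared slide the median was -0.45.

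Bnip3, a mitophagy receptor and a hypoxia-inducible gene, read 3.96 and 3.56 on the NT arrays and 2.14 and 2.10 with Thoc2 siRNA. The replicates of Thoc2 siRNA lay close together and more than 2-fold below both NT arrays. That is 32.1% of NT (-1.64 ± 0.20, adjusted p = 0.204). Egln3, an oxygen-sensing prolyl hydroxylase, read 0.47 and 0.03 with NT siRNA and -1.25 and -1.22 with Thoc2 siRNA (-1.48 ± 0.22). Slc16a3, a lactate exporter, read 5.17 and 4.91 against 3.48 and 3.95 (-1.32 ± 0.22), and Aldoc, a fructose-bisphosphate aldolase, 1.63 and 1.31 against 0.07 and 0.24 (-1.31 ± 0.22). For each of these 3 genes, which were picked by p, all Thoc2 siRNA arrays lay below all NT arrays, as in 20.7% of all genes.

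Enzymes along the main path lay lower by less. Pgk1, phosphoglycerate kinase, read 7.46 and 7.09 with NT siRNA and 6.53 on both Thoc2 siRNA arrays (-0.75 ± 0.19). Ldha, which makes lactate from pyruvate, read 8.02 and 8.07 against 7.45 and 7.43 (-0.61 ± 0.16). These 2 were chosen after their values were seen, as were Tpi1, Ldhb, Pgam1, Slc2a3, Pdk1, Gapdh, Hk2, Pkm and Slc16a1. Tpi1 was at 61.3% of NT, Ldhb at 55.8%, Pgam1 at 63.8%, and the glucose transporter Slc2a3 at 61.3%. Pdk1, a kinase that inhibits pyruvate dehydrogenase, was at 62.7%. Other steps lay near NT: Gapdh was at 89.2% of NT, the hexokinase Hk2 at 90.4% and the pyruvate kinase Pkm at 100%. Slc16a1, a second lactate carrier, was low on 1 array only, at 2.08 on Thoc2 siRNA replicate 1 against 3.72 on replicate 2 and 4.04 and 3.93 with NT siRNA. On the higher side were Pfkfb4, which raises glycolytic flux (0.69 ± 0.22), and Car9, a hypoxia-inducible carbonic anhydrase (0.77 ± 0.27).

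**Figure D2:**
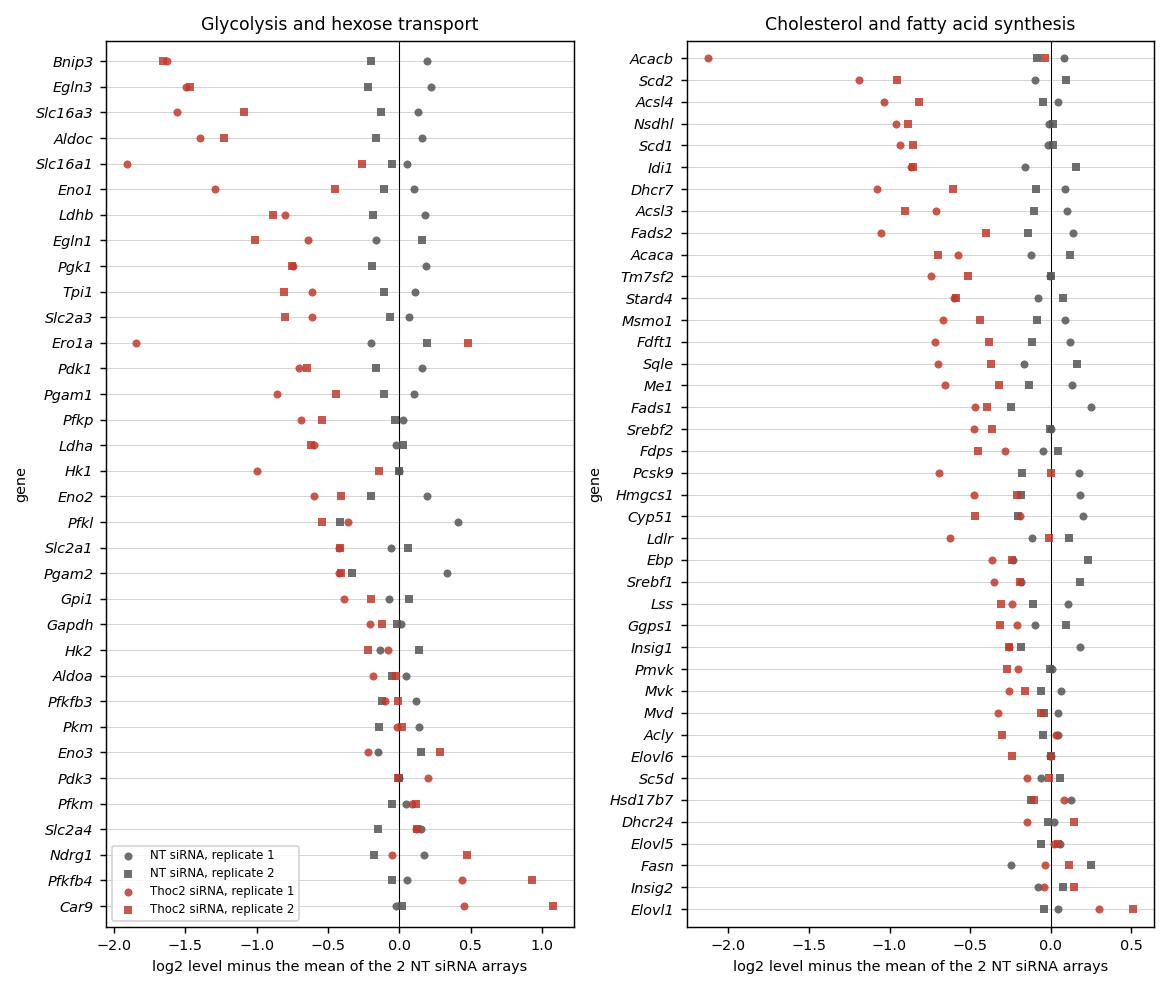
Level of the members reported from the glycolysis and lipid synthesis lists on each array, as log2 level minus the mean of the 2 NT siRNA arrays (horizontal axis), grey for NT siRNA, red for Thoc2 siRNA, circles for replicate 1 and squares for replicate 2. Most members sit to the left of 0 on both Thoc2 siRNA arrays, while Slc16a1, Ero1a and Acacb are low on replicate 1 alone.

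The promoters of this list were searched for ACGTG, the core of the site that hypoxia-inducible factors bind, on both strands in the 250 bases before each start (RefSeq, GRCm38.p6). A promoter was found for 31 of the 34 members. The letters occurred in 17 of them (54.8%), against 18.5% of the 27025 genes with a promoter in the table. They occurred in 7 of the 13 members with a lower unadjusted p under 0.05 and in 10 of the other 18, so the letters did not mark out the lower members. Base composition was not matched, the list was partly chosen for known hypoxia genes, and where the letters lie within CACGTG they also form an E-box. A gene with several promoters was counted if any of them held the letters. Ldha has a second promoter without them, which is not shown, and neither of the 2 Aldoc promoters holds them. The promoters of 3 lower members are shown with every match in capitals.
Bnip3, chr7:138909507-138909756 (- strand): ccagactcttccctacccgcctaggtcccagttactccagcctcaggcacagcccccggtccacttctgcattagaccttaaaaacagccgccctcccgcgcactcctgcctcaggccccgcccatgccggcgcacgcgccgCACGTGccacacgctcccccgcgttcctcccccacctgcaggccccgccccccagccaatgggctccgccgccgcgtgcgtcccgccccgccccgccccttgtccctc
Pgk1, chrX:106186850-106187099 (+ strand): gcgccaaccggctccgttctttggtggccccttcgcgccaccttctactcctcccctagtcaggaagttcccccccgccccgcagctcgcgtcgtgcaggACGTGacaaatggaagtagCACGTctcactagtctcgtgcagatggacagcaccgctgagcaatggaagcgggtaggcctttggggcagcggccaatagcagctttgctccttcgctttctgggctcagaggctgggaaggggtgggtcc
Ldha, chr7:46845554-46845803 (+ strand): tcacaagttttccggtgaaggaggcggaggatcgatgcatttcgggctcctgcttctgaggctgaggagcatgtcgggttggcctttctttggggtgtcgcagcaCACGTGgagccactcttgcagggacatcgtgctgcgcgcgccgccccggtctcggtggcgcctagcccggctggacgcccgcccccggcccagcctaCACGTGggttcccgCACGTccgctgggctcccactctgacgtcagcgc

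Cholesterol and fatty acid synthesis also lay below the median of all genes. These are the enzymes of the mevalonate and sterol path and of fatty acid building and desaturation, most of them targets of the SREBP factors. All 41 members were measured, 37 lay below 0, and the median was -0.34 (-0.47 and -0.31 for the replicates). By the looser rule, 13 lower and 0 higher members were found, 31.7% of the list against 14.7% of all genes. Without NT replicate 2 or without Thoc2 siRNA replicate 1 that count was 8, and under normexp it was 4, while the median stayed between -0.49 and -0.27. Scd2, a desaturase that puts the first double bond into fatty acids, was chosen after its values were seen. It read 4.74 and 4.93 with NT siRNA and 3.65 and 3.88 with Thoc2 siRNA, without overlap. That is 47.6% of NT (-1.07 ± 0.24). Acsl4, which activates arachidonic acid, read 2.48 and 2.39 against 1.40 and 1.62 (-0.93 ± 0.15), while a second Acsl4 probe was higher on both Thoc2 siRNA arrays (0.42) and the median of both was -0.25. Acsl3, which activates other long-chain fatty acids, read 1.39 and 1.19 against 0.58 and 0.38 (-0.81 ± 0.16). In the sterol path Nsdhl, a sterol dehydrogenase, read 0.03 and 0.06 against -0.91 and -0.84 (-0.92 ± 0.18), and Idi1, which isomerises isopentenyl diphosphate, 4.16 and 4.48 against 3.46 and 3.47 (-0.86 ± 0.18). By their brightest probe, each of these 4 genes was lower on both Thoc2 siRNA arrays than on either NT array. They were picked by p, and 20.7% of all genes lay below in this way. Scd1 (53.8% of NT), Dhcr7 (55.7%) and the regulator Srebf2 (74.9%), chosen after their values were seen, lay on the same side. The fatty acid synthase Fasn was at 103% of NT. Only 30 of the 41 members had a promoter in the table, so a search for the sterol element was void.

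MHC class I and antigen processing also lay low. Class I molecules present peptides to T cells, with B2m as the shared light chain. Of 22 members kept, 17 lay below 0, with a median of -0.34 (-0.31 and -0.52 for the replicates). An unadjusted p under 0.05 was found for 9 lower and 0 higher members (40.9% against 14.7% of all genes). That count was 6 without Thoc2 siRNA replicate 2, 3 under normexp and 5 with the median of a gene's probes; the median stayed below 0 in all 17 alternatives. H2-K1, a classical class I heavy chain, read 3.07 and 3.09 on the NT arrays and 1.32 and 1.46 with Thoc2 siRNA. Replicates of each group agreed closely, and the gap between the groups was more than 2-fold on every pair of arrays. H2-K1 was at 30.9% of NT (-1.69 ± 0.14, adjusted p = 0.204, and 0.0291 with the intensity trend and robust variances). Its difference within the shared slide was -1.61. The probe for LOC56628, annotated in the files as another class I antigen, shares 52 bases of chr17:32074453-32074507 (mm7) with the H2-K1 probe at chr17:32074445-32074504; it read 28.9% of NT and is no independent measurement. Other H2-K1 probes gave smaller differences of -0.63 and -0.83.

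H2-D1, the other classical heavy chain here, read 1.94 and 1.45 with NT siRNA and 0.61 and 0.65 with Thoc2 siRNA (-1.07 ± 0.22). A second, dim H2-D1 probe went the other way (1.09), so with the median of both probes the difference was 0.01. H2-Q7 read 0.98 and 0.67 against -0.09 and -0.08 (-0.92 ± 0.17), and Psmb9, an immunoproteasome subunit, -0.07 and -0.48 against -1.29 and -1.28 (-1.01 ± 0.20). Class I heavy chain genes are close copies, and cross-hybridisation between them could not be separated. B2m (54.2% of NT), the peptide-trimming Erap1 (48.6%) and H2-T23 (55.1%), named after their values were seen, were lower on both Thoc2 siRNA arrays. The peptide transporter gene Tap1 was at 96.8% of NT. Promoters of this list were searched for GGGATTC, the core of an NF-kB site known from class I genes, on both strands of the 250 bases before the start. The letters occurred in 4 of the 18 members with a promoter (22.2%), against 2.95% of 27025 genes, and in 3 of the 8 lower members with one, H2-K1, H2-D1 and H2-Q7. These class I genes are copies of each other, so their promoters are not independent. The first 2 are shown from RefSeq (GRCm38.p6) with the match in capitals.
H2-K1, chr17:34000348-34000597 (- strand): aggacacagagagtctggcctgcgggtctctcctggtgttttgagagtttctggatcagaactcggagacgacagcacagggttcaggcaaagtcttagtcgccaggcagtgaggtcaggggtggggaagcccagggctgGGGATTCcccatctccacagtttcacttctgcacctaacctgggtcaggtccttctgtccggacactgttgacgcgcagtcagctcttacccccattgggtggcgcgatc
H2-D1, chr17:35262844-35263093 (+ strand): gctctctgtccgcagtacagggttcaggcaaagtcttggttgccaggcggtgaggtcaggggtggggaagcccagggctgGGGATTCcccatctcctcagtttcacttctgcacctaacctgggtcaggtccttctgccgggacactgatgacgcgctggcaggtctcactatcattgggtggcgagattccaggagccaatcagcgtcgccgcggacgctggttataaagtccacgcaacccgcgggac

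Interferon-stimulated genes were mixed. Of 24 kept, 14 lay below 0 and 10 above (median -0.30). By an unadjusted p under 0.05, 6 were lower and 1 higher (29.2% against 14.7% of all genes). The list median was 0.08 under normexp and -0.06 without Thoc2 siRNA replicate 1. Ifitm1, a membrane restriction factor expressed in embryonic stem cells, read 3.69 and 3.68 with NT siRNA and 2.61 and 2.72 with Thoc2 siRNA (-1.02 ± 0.14). Its neighbour Ifitm2 read 3.70 and 3.92 against 1.78 and 2.65 (-1.59 ± 0.35). Bst2, which tethers virions (-0.71 ± 0.16), and the ADP-ribosyltransferase Parp14 (-0.77 ± 0.18) lay lower on both arrays as well. Rsad2, an antiviral enzyme, went the other way (1.32 ± 0.43) at a level near background.

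**Figure D3:**
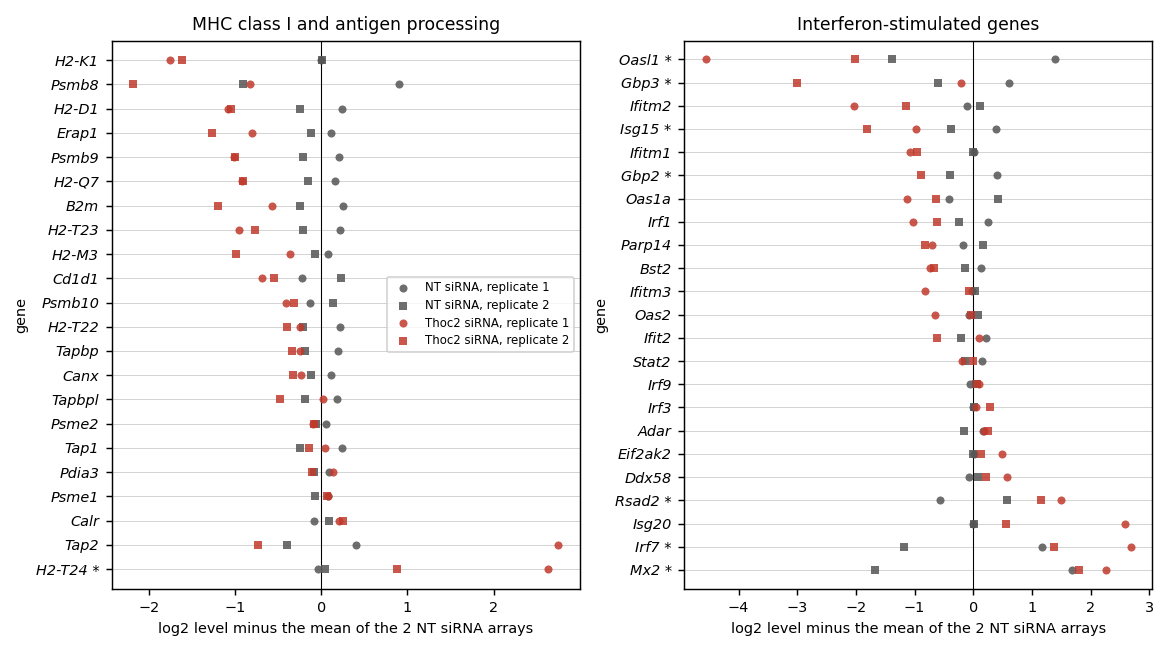
Level of the members reported from the MHC class I and interferon lists on each array, as log2 level minus the mean of the 2 NT siRNA arrays (horizontal axis), grey for NT siRNA, red for Thoc2 siRNA, circles for replicate 1 and squares for replicate 2; a star marks genes not well above background on every array. H2-K1 separates the groups most clearly, with Thoc2 siRNA arrays at 1.32 and 1.46 against 3.07 and 3.09.

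Replication-dependent histones lay lower too. Their mRNAs end in a stem-loop in place of a poly(A) tail. Only 32 of the 61 listed genes have a probe named for them here and 30 were kept, of which 24 lay below 0, with a median of -0.33 (-0.47 and -0.17 for the replicates). An unadjusted p under 0.05 was found for 7 lower and 0 higher members (23.3% against 14.7% of all genes). There were 4, 2 and 4 lower without NT replicate 1, NT replicate 2 and Thoc2 siRNA replicate 1. H2ac8 read -1.31 and -1.12 with NT siRNA and -2.01 and -1.94 with Thoc2 siRNA (-0.76 ± 0.15). H2bc4 read 0.59 and 0.80 against 0.03 and -0.08 (-0.72 ± 0.17). H2bc12 (-0.73 ± 0.20) and H2ac4 (-0.57 ± 0.15) were on the same side. They were picked by p, and the groups did not overlap, as for 20.7% of all genes on the lower side. Copies of histone genes are nearly identical, so single members are uncertain. H4c4 was low on 1 array, at 3.01 on Thoc2 siRNA replicate 1 against 4.99 on replicate 2.

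Several lists of later developmental regulators had medians above that of all genes. The neural homeobox and bHLH factors, transcription factors that pattern and specify the nervous system, had the highest median. Of 52 listed, 36 were kept and 28 were well above background on all 4 arrays; since dim genes enter only through the group where they are bright, the medians and counts of this and the other lists with dim members describe those kept and support nothing. The median was 0.64 over the 36 and 0.55 over the 28, and 31 of the 36 lay above 0. There were 9 higher and 0 lower members at an unadjusted p under 0.05 (25% against 14.7% of all genes). The higher count was 5 after quantile normalization, without NT replicate 2 and without Thoc2 siRNA replicate 2, and 4 under normexp. Irx2 read -3.49 and -3.45 with NT siRNA and -2.61 and -2.15 with Thoc2 siRNA (1.10 ± 0.20). Nkx2-2, a ventral neural tube factor, read -5.78 and -6.61 against -4.78 and -4.46 (1.58 ± 0.32), with 1 NT array not well above background. Zic1, below background on both NT arrays, was higher by a bound of at least 2.65-fold. Such bounds use the mean of both Thoc2 siRNA arrays, so a single array can lie below them. Six3, a forebrain and eye factor, was likewise a bound, at least 6.95-fold higher, with -4.01 and -2.57 on the Thoc2 siRNA arrays. Most neural members are dim in these cells. Pax6 (63.7% of NT), chosen after its values were seen, and Neurog3 (57.3%, low on Thoc2 siRNA replicate 1 alone) lay lower.

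Hox genes with their Meis and Pbx cofactors, which give position along the body axis, lay above 0 in 22 of 31 kept members, with medians of 0.38 over these and 0.29 over the 22 above background on all 4 arrays. Without Thoc2 siRNA replicate 1 the median was 0.20. An unadjusted p under 0.05 was found for 6 higher members (19.4% against 14.7% of all genes). That count was 3 without Thoc2 siRNA replicate 1, 2 after quantile normalization and 1 under normexp. Meis2, a homeobox cofactor of Hox proteins, read -1.92 and -1.95 on the NT arrays and 0.08 and 0.28 with Thoc2 siRNA. All 4 arrays were well above background and the groups lay 2-fold apart or more, a 4.33-fold difference (2.11 ± 0.22, adjusted p = 0.204). A second Meis2 probe gave 1.94. The caudal factor Cdx2 read -4.84 and -4.26 against -3.49 and -3.67 (0.97 ± 0.30). Hoxa2 and Hoxd10 were not above background with NT siRNA and were at least 3.33-fold and 2.59-fold higher by bound. Hoxa2 read -5.63 and -3.33 with Thoc2 siRNA.

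Among GATA, Sox, Fox and Tbx factors, which specify germ layers and organs, 25 of 35 kept members lay above 0. An unadjusted p under 0.05 was found for 6 higher and 4 lower (28.6% against 14.7% of all genes). The median was 0.35, but it was -0.01 on Thoc2 siRNA replicate 1 and 0.49 on replicate 2, and it ran from -0.08 to 0.86 over the alternatives, so the list as a whole had no settled direction. Gata3, a trophectoderm and T cell factor, read -4.89 and -5.11 with NT siRNA and -2.61 and -2.63 with Thoc2 siRNA. Both groups were tight and more than 2-fold apart, a 5.22-fold difference (2.38 ± 0.17, adjusted p = 0.204). The heart factor Tbx20 read -6.28 and -5.51 with NT siRNA against -3.09 and -3.84 (2.42 ± 0.44), with 1 NT array not well above background. Tbx4, a hindlimb factor, was at least 2.54-fold higher as a bound. The lower 4 were the vascular Sox18 (-0.68 ± 0.14, 0.03 under normexp), Sox13 (-0.74 ± 0.21), Tbx21, a T helper cell factor (-1.02 ± 0.18, -0.03 under normexp), and the presomitic mesoderm factor Tbx6 (-1.19 ± 0.39, -0.24 under normexp).

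**Figure D4:**
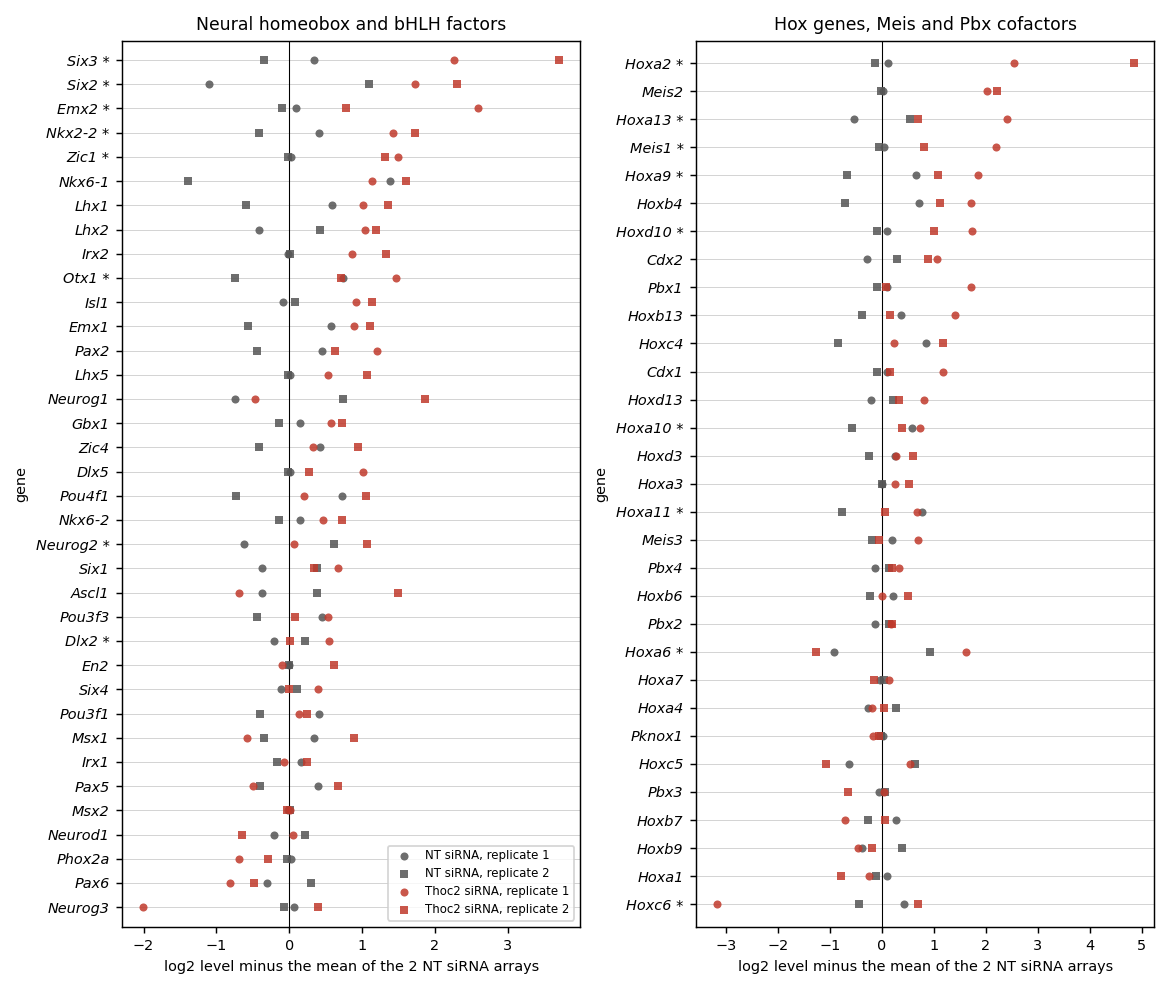
Level of each kept neural factor and each kept Hox, Meis or Pbx gene on each array, as log2 level minus the mean of the 2 NT siRNA arrays (horizontal axis), grey for NT siRNA, red for Thoc2 siRNA, circles for replicate 1 and squares for replicate 2; a star marks genes not well above background on every array. Meis2 is among the few that combine clear signal with close replicates, while many others scatter widely.

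Signalling genes lay on both sides of NT. In the Wnt pathway 44 members were kept, and 7 higher and 7 lower had an unadjusted p under 0.05 (31.8% against 14.7% of all genes). On the higher side were 4 ligands and the target gene Sp5 (1.10 ± 0.31), which was chosen after its values were seen. Wnt6 read -1.34 and -1.16 with NT siRNA and 0.25 and 0.66 with Thoc2 siRNA (1.70 ± 0.20), and Wnt10a -2.97 and -2.88 against -1.95 and -1.50 (1.20 ± 0.20). Wnt4 (1.14 ± 0.20) and Wnt3 (1.09 ± 0.24) also lay above NT on both arrays. The named lower members were Sfrp4, a secreted antagonist, at 0.49 and 0.48 against -0.60 and -0.93 (-1.24 ± 0.17), the co-receptor Lrp5 (-0.65 ± 0.19), the receptor Fzd9 (-0.63 ± 0.22) and the feedback inhibitor Nkd1 (-0.61 ± 0.19, and 0.04 under normexp). Leaving out single arrays gave 4 to 7 higher and 2 to 5 lower members.

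The endothelin list held the gene with the smallest p of all named genes. Edn2, a vasoconstrictor peptide ligand, read -2.12 and -2.05 on the NT arrays and 0.92 and 0.76 on the Thoc2 siRNA arrays. Both pairs of replicates lay close and the groups were far apart, so Edn2 was 7.59-fold higher (2.92 ± 0.18, adjusted p = 0.204, and 0.0208 with the intensity trend and robust variances). The difference was 2.88 within the shared slide, and 2.31 to 3.0 over all alternatives. Its probe lies at chr4:119607055-119607114 (mm7). Npr2, a natriuretic peptide receptor, was the other member with an unadjusted p under 0.05 (1.35 ± 0.36), out of 19 kept. The share of the list was 10.5%, below the 14.7% of all genes.

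Notch, a contact-dependent pathway, had 23 members kept, 13 below 0, with 5 lower and 0 higher at an unadjusted p under 0.05. That is 21.7% against 14.7% of all genes, with 2 or 3 lower whichever array was left out. Dtx1, a Notch modulator and target, read 2.29 and 2.35 with NT siRNA and 1.05 and 1.48 with Thoc2 siRNA (-1.06 ± 0.25). The ligand Dll3 read 0.36 and 0.34 against -0.42 and -0.64 (-0.88 ± 0.23), the ligand Dll1 -1.44 and -1.58 against -2.12 and -2.20 (-0.65 ± 0.15, and -0.0027 under normexp), and the imprinted, Notch-related Dlk1 0.56 and 0.26 against -0.31 on both (-0.72 ± 0.18). In all 4 genes, which were picked by that p, the groups did not overlap. The receptor Notch1 was at 103% of NT and the target Hes1 at 111%.

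In the TGF-beta and activin pathway 25 members were kept, with 2 higher and 7 lower at an unadjusted p under 0.05 (36% against 14.7% of all genes). There were 2 to 5 lower with an array left out, and 2 with the replicate number as a block. Fst, which binds and blocks activin, read -3.80 and -4.41 with NT siRNA and -1.53 and -2.38 with Thoc2 siRNA (2.14 ± 0.41, 4.42-fold). The receptor Acvr2a lay 0.76 ± 0.14 higher. Acvr1b (-0.44 ± 0.14), Smad3 (-0.54 ± 0.16) and Skil (-0.69 ± 0.17) were lower by their brightest probe and not lower by the median of their probes. Hedgehog genes gave 1 of 15 (6.67%, below the 14.7% of all genes), the receptor component Smo at 3.12 and 2.99 against 2.69 and 2.43 (-0.50 ± 0.16).

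Growth factors and receptor tyrosine kinases gave 4 higher and 5 lower of 40 (22.5% against 14.7% of all genes). Higher were Efnb2, an ephrin ligand (-0.24 and 0.07 against 1.75 and 1.06, 1.49 ± 0.30), the VEGF receptor Kdr (1.20 ± 0.22), and the ligands Pdgfa (0.76 ± 0.21) and Hbegf (0.76 ± 0.16). Igfbp2, which binds insulin-like growth factors, read 5.77 and 5.43 with NT siRNA and 4.33 and 4.73 with Thoc2 siRNA (-1.07 ± 0.26). Fgf17 (-0.82 ± 0.20), Igf1r (-0.73 ± 0.17) and the stem cell factor receptor Kit (-0.50 ± 0.15) were lower too. The groups did not overlap in any of these 8 genes, which were picked by that p. The share without overlap over all genes was 25.7% on the higher side and 20.7% on the lower.

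Adhesion and matrix genes divided between members. Of 46 cadherins, integrins and junction genes, 8 were higher and 5 lower at an unadjusted p under 0.05 (28.3% against 14.7% of all genes). Itga8, an integrin subunit of developing kidney, read -2.16 and -1.87 with NT siRNA and -0.17 and -0.51 with Thoc2 siRNA (1.68 ± 0.23), and Cdh4, a neural cadherin, -2.29 and -2.60 against -0.56 and -1.12 (1.60 ± 0.25). Cdh13, a lipid-anchored cadherin, lay 1.13 ± 0.21 higher, and Itga4 was at least 2.15-fold higher from below background. On the lower side the rule named 4 junction genes. The desmosome plaque gene Pkp2 read 3.91 and 4.14 against 2.65 and 3.01 (-1.19 ± 0.21), and the tight junction genes Cldn7 1.98 and 1.72 against 0.87 and 0.80 (-1.01 ± 0.21) and Cldn6 0.75 and 0.46 against -0.27 and -0.45 (-0.96 ± 0.21). Dsp, another desmosome gene, differed by -0.49 ± 0.17. In these 4 genes, which were picked by that p, both Thoc2 siRNA arrays were below both NT arrays, as in 20.7% of all genes.

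Of 37 collagens and laminins, 7 were higher and 2 lower (24.3% against 14.7% of all genes). The higher count was 5 to 8 with an array left out, 4 after quantile normalization and 0 under normexp. Col3a1 and Lama2 among the 7 were not above background with NT siRNA and entered through the group where they are high. Col5a1, a fibril collagen chain, read -1.07 and -1.27 with NT siRNA and -0.50 and -0.30 with Thoc2 siRNA (0.77 ± 0.16), Lama4 -5.19 and -5.15 against -4.30 and -4.27 (0.88 ± 0.14), and Col15a1 -5.37 and -5.33 against -3.39 and -3.47 (1.92 ± 0.43). Lama2 was at least 2.35-fold higher as a bound. Fn1, fibronectin, was one of the lower, at 2.32 and 2.56 against 1.52 and 1.54 (-0.91 ± 0.17). Among the fibroblast markers Tnc, a matrix glycoprotein, was at least 7.79-fold and Col3a1 at least 2.78-fold higher from below background, and Fbn1 (0.90 ± 0.19) and Twist1 (0.69 ± 0.24) were higher. Thy1 (-1.56 ± 0.39), Loxl1 (-0.85 ± 0.20, 0.01 under normexp) and Col1a1 (-0.97 ± 0.34, turned by normexp and by the median of probes) were lower. Their part in the matrix result was not tested.

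The gene expression and growth machinery lay near the median of all genes as scaled here. An unadjusted p under 0.05 was found for 1.27% of 79 cytosolic ribosomal protein genes, 3.95% of 76 respiratory chain genes, 3.80% of 79 mitochondrial ribosomal genes, 2.56% of 39 proteasome genes, 6.45% of 62 splicing factors, 5.13% of 39 genes of 3' end processing, 6.45% of 62 nuclear pore and transport genes, 4.62% of 65 DNA replication genes, 1.72% of 58 mitosis genes and 2.44% of 41 recombination genes, all below the 14.7% of all genes. Their medians lay between -0.11 and 0.00. That nearness did not hold in every alternative. The lowest values against all genes came under normexp, where the median of all genes was 0.28. There the medians lay at -0.43 (recombination genes) to -0.67 (cytosolic ribosomal proteins) against all genes. Single members stood out. Snrpd3, a core spliceosome protein, read 6.08 and 6.04 with NT siRNA and 5.20 and 5.23 with Thoc2 siRNA (-0.84 ± 0.13), and Snrpa1 5.12 and 5.08 against 4.56 and 4.49 (-0.58 ± 0.13). Srsf10, a splicing repressor, was higher (0.79 ± 0.17), as was Sf3a2 (1.36 ± 0.35). Cpsf2, a subunit of the cleavage and polyadenylation complex, read 3.75 and 3.89 against 3.05 and 3.16 (-0.72 ± 0.16), and Cpsf6 2.24 on both against 1.23 and 1.72 (-0.77 ± 0.28). Another Cpsf6 probe was higher (0.41), and the median of the Cpsf6 probes was -0.09.

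For transport, the import receptor Tnpo1 read 4.23 and 4.40 against 4.92 and 5.04 (0.66 ± 0.16), but a second Tnpo1 probe went the other way (-0.53) and the median of both was 0.07. The tRNA exporter Xpot read 3.83 and 4.03 against 3.36 and 3.31 (-0.60 ± 0.15). Nxf2, a paralog of the export receptor, was at least 2.63-fold higher from below background. Nup98 was lower by its brightest probe (-0.47 ± 0.16) and higher by the median of its probes. In the cell cycle Ccna2 (-0.64 ± 0.16), Ccnd1 (-0.63 ± 0.15) and the polymerase gene Pola1 (-0.58 ± 0.15) were the 3 lower replication members, and Cenph (0.39 ± 0.14) the only higher mitosis member, with its sign turned by the median of probes. Of the repair genes Rad50 was lower, at 0.31 and -0.14 against -0.74 and -0.95 (-0.93 ± 0.21). Other single calls were Rpl31 (-0.45 ± 0.14), Psmd8 (-0.59 ± 0.14), Ndufv3 (-0.49 ± 0.15), Ndufc2 (-0.51 ± 0.14), Cox7b (-0.63 ± 0.16), Mrps24 (-0.41 ± 0.14), Mrpl35 (-0.41 ± 0.15) and Mrps34 (0.47 ± 0.15, turned by normexp).

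Chromatin regulators gave 6 higher and 5 lower of 59 (18.6% against 14.7% of all genes). Dnmt3a, a de novo DNA methyltransferase, read 1.77 and 1.91 with NT siRNA and 0.85 and 0.90 with Thoc2 siRNA, or 51.1% of NT (-0.97 ± 0.16). The histone demethylase Kdm5b read 2.07 and 2.01 against 1.40 and 1.12 (-0.78 ± 0.16), and Rbbp7, a histone chaperone, was lower (-0.55 ± 0.17), as was Chd1 by its brightest probe (-0.58 ± 0.19, 0.10 by the median of probes). The higher members named by the rule were the methyl-binding Mbd1 (0.65 ± 0.20) and the Polycomb genes Cbx8 (0.86 ± 0.19), Bmi1 (0.64 ± 0.14) and Pcgf2 (0.61 ± 0.18). In the 8 genes named here, which were picked by p, the groups did not overlap. Across the list 29 members lay above 0 and 30 below, with a median of -0.01.

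Imprinted genes gave 1 higher and 5 lower of 41 (14.6%), no more than the background. Phlda2, which restrains placental growth, read 6.11 and 6.47 with NT siRNA and 5.05 and 5.10 with Thoc2 siRNA, or 43.1% of NT (-1.21 ± 0.23). Mkrn3 (-0.99 ± 0.21) and the amino acid carrier Slc38a4 (-0.85 ± 0.24, and -0.03 at the end of its range over alternatives) were lower, and the noncoding Xist was at least 2.36-fold higher from below background. Of 22 trophoblast genes 3 were lower and 0 higher (13.6%, also no more than the background): Tex19.1 (-0.68 ± 0.15), Tfap2c (-0.62 ± 0.23) and Plet1 (-0.51 ± 0.15).

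Among genes in none of the lists on pluripotency, stress and the 2-cell state, 76 higher and 63 lower were well above background on all 4 arrays, 2-fold separated and had an unadjusted p under 0.05; the 12 largest of each are described. Besides Edn2, Gata3, Fst and Meis2, the higher were led by Skor1, a transcriptional corepressor, at 0.32 and 1.18 with NT siRNA and 3.47 and 3.51 with Thoc2 siRNA. The difference was 6.7-fold (2.74 ± 0.36) with no overlap. Svop, a synaptic vesicle protein, read -2.73 and -3.56 against -0.66 and -1.02 (2.30 ± 0.33), Rassf9, an endosomal protein, -3.12 and -3.54 against -0.93 and -1.37 (2.19 ± 0.25), and Pcdh17, a protocadherin, -5.15 and -5.19 against -2.66 and -3.50 (2.09 ± 0.35). A second Svop probe read -3.33 and -4.35 with NT siRNA and -5.21 and -3.05 with Thoc2 siRNA (-0.29). By the brightest probe of each gene, the 2 replicates stood on the same side by similar amounts. Abca14, an ABC transporter (2.10 ± 0.22), and Tcl1b5, of the Tcl1 family (2.10 ± 0.52), were alike, while Il1r1, the interleukin 1 receptor, read -2.04 and -3.79 with Thoc2 siRNA against -5.22 and -4.99 (2.19 ± 0.61). Insc, an adaptor of spindle orientation, had the widest NT arrays, -5.18 and -3.31, against -1.90 on both Thoc2 siRNA arrays (2.35 ± 0.68). A second Insc probe gave 1.23.

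The largest lower differences were in dimmer or less studied genes. Rraga, a Rag GTPase that signals amino acids to mTORC1, was bright, at 4.07 and 3.80 with NT siRNA and 1.39 and 2.68 with Thoc2 siRNA (-1.90 ± 0.47). Upk3bl, a uroplakin-like gene, read 0.34 and 0.29 against -1.72 and -1.23 (-1.79 ± 0.21), and Ly6g6e 1.66 and 0.93 against -0.98 and -0.18 (-1.88 ± 0.53). Glipr2 read 1.94 and 1.20 against -0.07 and -0.28 (-1.75 ± 0.60), and Serpinf1, an anti-angiogenic secreted protein, -1.81 and -1.51 against -3.30 and -4.23 (-2.10 ± 0.35). By these probes the arrays of the groups were at least 2-fold apart in all 5. Second probes gave -1.36 for Upk3bl, -0.77 for Ly6g6e and -0.38 for Serpinf1. Pramel37 (-2.95 ± 0.73), Mup3 (-2.73 ± 0.91), Car6 (-2.12 ± 0.41), Mogat2 (-2.08 ± 0.77), Lgals6 (-1.99 ± 0.58), Dusp26 (-1.71 ± 0.45) and Atp6v0a4 (-1.71 ± 0.32) were lower with more scatter; Mup3 and Pramel37 belong to families of close copies. Under normexp the sign turned for Car6, Lgals6 and Atp6v0a4, and the difference shrank to -0.30 for Mup3, -0.39 for Pramel37, -0.55 for Mogat2, -0.52 for Dusp26 and -0.37 for Serpinf1.

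**Figure D5:**
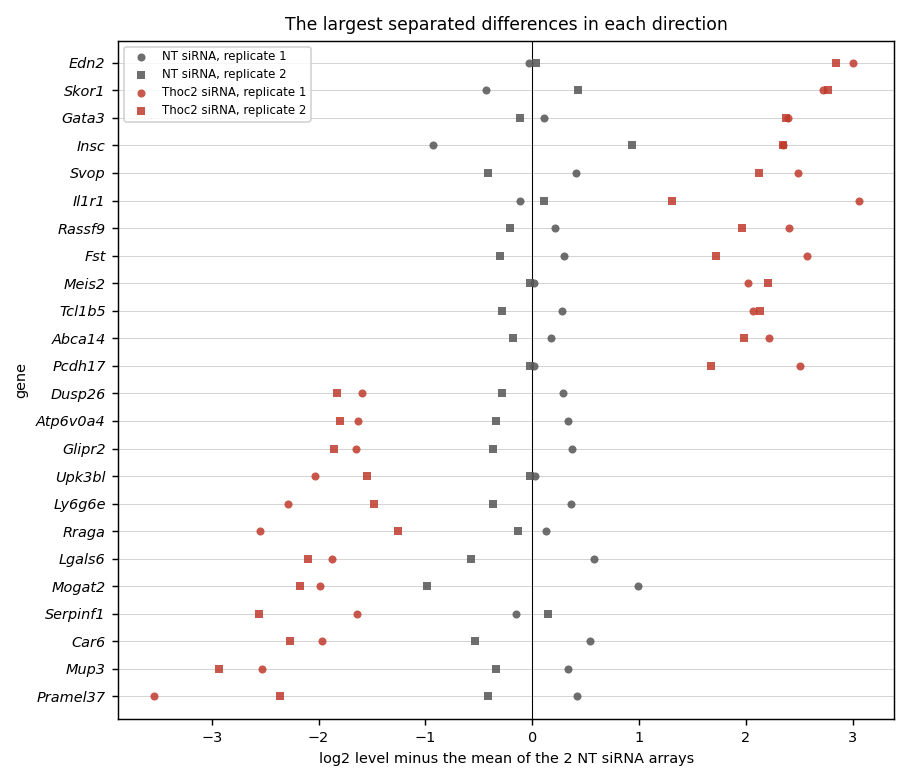
The 12 highest and 12 lowest genes of the rule on each array, as log2 level minus the mean of the 2 NT siRNA arrays (horizontal axis), grey for NT siRNA, red for Thoc2 siRNA, circles for replicate 1 and squares for replicate 2. The Thoc2 siRNA points lie at least 1 from both NT points in every row; Edn2 heads the plot and Insc and Mogat2 have the widest NT arrays.

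A further 289 genes were well above background on both Thoc2 siRNA arrays and on neither NT array, and 69 were so the other way round. Thoc2 siRNA replicate 1 had the largest share of spots above background, and its part in this imbalance was not tested. By bound, the leading genes on with Thoc2 siRNA were Iqcf3, a testis IQ-motif gene (at least 14.5-fold), the scavenger receptor Msr1 (at least 10.5-fold), Tnc, the kinesin Kif2b (at least 7.17-fold), the adhesion scaffold Nedd9 (at least 7.06-fold), Six3, and the olfactory receptors Olfr1046 (at least 6.41-fold) and Olfr160 (at least 6.01-fold). Iqcf3 read -1.53 and -3.18 with Thoc2 siRNA, so even the leading gene differed between replicates. The bounds use the mean of both Thoc2 siRNA arrays, and a single array can lie below them. Under normexp the log2 differences of these leading genes ran from 1.98 (Six3) to 2.41 (Msr1). Those off included Keg1 (at least 6.96-fold lower), Olfr64 (4.64), Olfr470 (3.70), Olfr1221 (3.43), Akr1c14 (3.39), Ces3b (2.75) and the muscle factor Myf6 (2.57), each a lower bound. Under normexp the fitted difference turned sign for 6 of these 7 and was -0.0062 for Keg1, against -4.32 as scaled here, and olfactory receptors have many close copies.

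Set against Thoc5 siRNA directly, which shares no NT array in the contrast, 0 genes passed an adjusted p of 0.05 (smallest 0.387) and 1777 had an unadjusted p under 0.05 (9.25%). Of these 1777 genes, 415 were higher and 1362 lower with Thoc5 siRNA. For glycolysis 0 of 34 members differed by that rule, with medians of -0.54 for Thoc2 siRNA and -0.45 for Thoc5 siRNA against the same NT arrays; for cholesterol and fatty acid synthesis 1 of 41 did, with -0.34 and -0.38. Other lists had larger shares. The directions of their members support nothing, since genes were kept through NT or Thoc2 siRNA and never through Thoc5 siRNA. Thoc5 siRNA replicate 1 also had only 56.7% of spots well above background. By the same rule 29.2% of interferon-stimulated genes differed between the siRNAs (1 higher and 6 lower with Thoc5 siRNA), 26.1% of Notch genes (2 and 4), 24.3% of collagens and laminins (1 and 8), 22.6% of Hox, Meis and Pbx genes (2 and 5) and 13.6% of MHC class I genes (1 and 2). Bnip3 read 2.31 and 2.08 with Thoc5 siRNA and H2-K1 1.35 and 1.37, close to their Thoc2 siRNA levels. A p that misses the threshold does not show that the siRNAs act alike. Thoc5 siRNA minus Thoc2 siRNA was -0.95 ± 0.18 for Edn2 (adjusted p = 0.443 in limma), -0.91 ± 0.22 for Meis2 (0.461) and -1.29 ± 0.25 for Rassf9 (0.443). It was 1.25 ± 0.20 for Wnt10a and -3.04 ± 0.52 for Tcl1b5, both with an adjusted p of 0.443. None of these 5 differences passed.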

How the data were processed

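Total RNA from J1 cells was read on 6 one-colour Agilent arrays, and the labels put 2 arrays in each of 3 groups. Each deposited file holds the scanner's intensity per spot, background-subtracted in the processed signal, per the file headers. The headers name Feature Extraction 9.5.3.1 and build mm7, whereas the submitters' processing notes name version 11.0. The deposited value matrix of the series holds log2 values of the same arrays, column medians near 5.95, in the rank order of the processed signal; the 6 columns share their distribution. How the authors made it is not stated in the sources used here, and it was used as an alternative.

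Spots holding controls or marked as outliers were dropped and replicate spots of each probe averaged; the analysed value is log2 of the processed signal relative to the array's 75th percentile. A probe was kept if well above background on both arrays of either group, and a gene took its brightest probe. Of the probe names, 22951 came through an accession and 131 through another, 6582 by symbol and 3073 by synonym, in a RefSeq table of GRCm38.p6 used for names and promoters only; 8437 kept the file's name. One model over all 6 arrays was run with lmFit and eBayes (limma 3.58.1, R 4.3.3), with Benjamini-Hochberg adjustment. Depth has no equivalent on arrays, and 2 arrays per group limit the precision. For a gene below background on both arrays of a group the fold is a bound, taken against, per array, the higher of the lowest signal well above background and the probe's own. It uses the mean of the other group's 2 arrays, so a single array can lie below it.

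Genes were named as follows: all THO and TREX members; per list up to 4 members in each direction with an unadjusted p under 0.05; the 12 largest separated genes in each direction; and the 8 largest bounds in each direction. Exceptions are said to be chosen after their values were seen, or are given as members near NT or resting on 1 array. Some genes this rule picks are not reported here; they remain in the fits and counts. The comparison, the lists and the genes were chosen with earlier results of these data known. Alternatives changed the background correction (normexp, offset 50), normalization (quantile, cyclic loess), filter, probe summary, variance model, slide block, replicate block and arrays used. The fit was tested on simulated data.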

Additional observations from a re-analysis of the deposited data

Results flagged for a closer look

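For 2 of the named genes the readings with Thoc5 siRNA lay below both NT arrays and those with Thoc2 siRNA above them, but the Thoc5 side was at or near background in both, so an opposite direction was not measured. Col15a1, a basement membrane collagen, differed by 1.92 with Thoc2 siRNA. With Thoc5 siRNA it read -6.93 and -5.70 against -5.37 and -5.33 with NT siRNA (-0.97), and only 1 of the 2 Thoc5 siRNA arrays was well above background. The direct difference between the siRNAs, -2.88 ± 0.43, did not pass (adjusted p = 0.409 in limma). Six3 was well above background on the Thoc2 siRNA arrays alone. Its fitted difference of 2.99 is therefore no measured size, and its Thoc5 siRNA readings have no order against those with NT siRNA. The bound of 6.95-fold rests on the mean of Thoc2 siRNA readings of -4.01 and -2.57, as scaled here. Under normexp the log2 difference was 1.98.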

How the results depend on the processing

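The count of 0 genes at an adjusted p under 0.05 held in every alternative but the intensity trend with robust variances, which gave 4. Unadjusted p under 0.05 was found for 840 genes under normexp and 1843 to 2736 with 1 array left out. With the replicate number as a block it was 2788 genes, 0 passed the adjusted test, and Thoc2 differed by -0.86 (adjusted p = 0.356 in limma). The numbers do not pair the arrays: the correlation of replicate differences was -0.206 between NT and Thoc2 siRNA. A fit of the 4 arrays alone gave 2118 genes, and the same 4 arrays with the numbers crossed as a block, added after seeing the data, gave 1764. Genes separated by 2-fold numbered 122 under normexp, 768 with no filter, 203 when all 4 arrays had to be above background and 1289 to 1950 with 1 array left out. Thoc2 differed by -1.05 to -0.68 with 1 array left out and -0.99 within the shared slide.

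Of the values for named genes under the alternatives, 3181 were counted as the same, 67 as moved, 2 newly passed and 37 turned sign. The size of a shift was checked within the shared slide only, against the standard error. In all other alternatives a value counted as the same if it kept its sign and did not newly pass, however far it shrank. Mup3, for one, counted as the same throughout while it ran from -3.38 to -0.30. The cause of these changes was not tested. Under normexp Alyref was at -0.23, Thoc3 -0.067, Thoc5 -0.32, Nxt1 -0.25, Chtop -0.34, Sox18 0.026, Smad3 0.21, Nkd1 0.040, Spag16 0.96, Col1a1 0.42, Loxl1 0.0065, Tfr2 0.54, Mrps34 -0.062, Atp6v0a4 0.15, Lgals6 0.31, Car6 0.26, Olfr1221 0.64, Myf6 0.85, Olfr64 0.47, Olfr470 0.76, Akr1c14 0.65 and Ces3b 0.82. With the median of a gene's probes H2-D1 was at 0.012, Chd1 0.10, Acvr1b 0.93, Smad3 0.53, Skil 0.19, Col1a1 0.36, Ireb2 1.13, Cenph -0.15 and Nup98 0.44. Without Thoc2 siRNA replicate 1 Thoc5 was at -0.14, Chtop -0.13 and Poldip3 0.13. Thoc5 was at -0.0043 within the shared slide. With 1 array left out, Nxt1 ran from -0.036 (without NT replicate 2) to 0.29, and Chtop from -0.13 to 0.18 (-0.12 without NT replicate 1). Differences that kept their sign but shrank under normexp included Ddx39b (0.029), Thoc6 (0.041), H2ac8 (-0.14), Lrp5 (-0.20), Pdgfa (0.21), Dsp (-0.099), Mkrn3 (-0.27), Tnpo1 (0.072), Mcoln1 (0.11) and Ift122 (0.22), and, with the median of probes, Igf1r (-0.094) and Srsf10 (0.27). Normexp moved the median of all genes to 0.28. Signal near background limits the dim developmental genes and every bound.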

Other observations

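Lysosome and autophagy genes, which break down and recycle cell contents, gave 6 lower and 1 higher of 45 at an unadjusted p under 0.05 (15.6% against 14.7% of all genes). Lysosomal hydrolases were among the lower. Gusb, which removes glucuronic acid, read 0.95 and 1.12 with NT siRNA and -0.13 and 0.03 with Thoc2 siRNA (-1.08 ± 0.16), and Gla, an alpha-galactosidase, 0.43 and 0.27 against -0.61 and -0.40 (-0.86 ± 0.17). For Gusb and Gla, which were picked by p, both Thoc2 siRNA arrays lay below both NT arrays, as in 20.7% of all genes. The autophagosome protein Gabarapl1 (-0.63 ± 0.15) was lower too, and the lysosomal channel Mcoln1 was higher (0.50 ± 0.17). Of 31 metal genes 2 were lower and 1 higher (9.68%, below the share of all genes). The lower were Tfr2 (-1.12 ± 0.22, turned by normexp) and the iron regulator Ireb2 (-0.54 ± 0.14, turned by the median of its probes).

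Cilia genes gave 5 higher and 2 lower of 44 (15.9%), close to the background. Rfx3, a regulator of ciliary genes, read -5.22 and -5.48 with NT siRNA and -4.25 and -4.28 with Thoc2 siRNA (1.08 ± 0.16), and the transport gene Ift172 2.42 and 2.97 against 3.48 and 3.31 (0.70 ± 0.23). Bbs1 (0.74 ± 0.26) and Ift122 (0.56 ± 0.19) were higher, and Spag16 (-0.80 ± 0.15, turned by normexp) lower. Contractile and actin genes gave 3 higher and 6 lower of 43 (20.9% against 14.7% of all genes), among them Anxa1 (0.96 ± 0.28) and S100a6 (0.66 ± 0.25) on the higher side. Myl7, an atrial myosin light chain, read 1.75 and 1.44 with NT siRNA and 0.45 and 0.71 with Thoc2 siRNA (-1.02 ± 0.24), and the tropomyosins Tpm2 (-0.66 ± 0.20) and Tpm4 (-0.65 ± 0.19) were lower as well. Of 31 neuronal and synaptic genes 3 had an unadjusted p under 0.05 (9.68%): Stmn3 was higher (1.03 ± 0.27), and its relative Stmn2 (-0.67 ± 0.17) and Rtn1 (-0.70 ± 0.15) were lower.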
